A study of Homo sapiens with 7 samples.

Results

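HOXB2, HOXB3, HOXB4, HOXB5, HOXB6, HOXB7, HOXB8 and HOXB9, the 8 neighbouring genes in the body of the HOXB cluster on chromosome 17, were described in MEG-01 cells with and without RBM15 knockdown. The 8 genes are 8 of 62238 gene models counted in the RNA-seq. They were selected on the counts of the same 3 libraries, because HOXB9 had been seen to fall strongly in the knockdown lines. Their differences between control and knockdown are therefore given as a description. Standard errors are given with them as a measure of spread, which is estimated partly from all genes together. No p-value is given for any of the 8, and the count of calls among them supports nothing.

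MEG-01 is an established human megakaryoblastic leukemia cell line, grown in RPMI1640 with 10% FBS and harvested in exponential phase at passage 5. RNA was sequenced from 3 cultures, which are 1 control culture and 2 stable lines in which RBM15 was knocked down by different lentiviral shRNAs, shRBM15#1 and shRBM15#2. The labels give lentiviral transgenes for all 3 cultures, but they name no hairpin or vector for the control. A list of RNA sites bound by RBM15, from RNA immunoprecipitation in the same cell line, was used for positions only.

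Reads on exon bins numbered 53230029 for the control, 41629454 for the shRBM15#1 line and 52458857 for the shRBM15#2 line. An exon bin is a piece of a gene model between places where its transcripts differ. Reads that fell outside every bin made up 21.6% of the control library, 30.4% of the shRBM15#1 library and 21.9% of the shRBM15#2 library. With a single control, all spread comes from the 2 knockdown lines, so differences between control cultures cannot be told apart from the knockdown.

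HOX genes encode homeodomain transcription factors that assign position along the body axis, and their order on the chromosome follows the order in which they are expressed in the embryo. In blood, HOXB genes of the 3' and central parts of the cluster are active in stem and progenitor cells, and their RNA declines as cells mature. MLL and Trithorax proteins maintain HOX transcription, Polycomb proteins repress it, retinoic acid activates the 3' end of the cluster, and proteins of the TALE class (MEIS, PBX and PKNOX) bind DNA together with HOX proteins.

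The 2 lines differ by the hairpin they carry, and the target sequences of both are shown to place them against RBM15 and against the HOXB transcripts. Capitals mark the longest run of bases that each target shares with the HOXB9 transcript.
shRBM15#1: gcggaaTACAAGActctgaa
shRBM15#2: ccaatggttatgcCATTCTT
The target of shRBM15#1 matched the coding sequence of RBM15 over all 20 bases at chr1:110882526-110882545 (GRCh37, plus strand), and that of shRBM15#2 did so at chr1:110884588-110884607. The longest run shared with the HOXB9 transcript was 7 bases for each hairpin. In the transcripts of the other 7 genes, on either strand, the longest run was between 6 and 8 bases.

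RBM15 (ENSG00000162775), an RNA-binding protein that takes part in N6-methylation of adenosine in mRNA, had 3970 reads in the control, 1957 in the shRBM15#1 line and 2121 in the shRBM15#2 line. In CPM, the read counts divided by the TMM-scaled size of the library, these were 80.1, 43.6 and 40.6. Both lines were therefore below the control, in the direction of their labels. The log2 fold change was −0.93 with a standard error (SE) of 0.23, and it did not pass the edgeR quasi-likelihood test over all genes at an adjusted p under 0.01 (adjusted p = 0.091, lower in 2 of 2 lines).

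The HOXB genes lie within a span of 200.653 kb, chr17:46605888-46806540 (GRCh37), from HOXB1 to HOXB13. All 8 genes are transcribed from the minus strand, so that HOXB2 is at the 3' end and HOXB9 at the 5' end of the series. In RPKM, which is CPM per kilobase of gene model, the control library held HOXB9 at 13.4, HOXB4 at 7.22, HOXB2 at 5.72, HOXB3 at 3.63 and HOXB7 at 1.90. HOXB5 was at 0.563, HOXB6 at 0.398 and HOXB8 at 0.124. The levels did not follow position along the chromosome, with HOXB5, HOXB6 and HOXB8 low between the more abundant genes. This order rests on 1 library and has no spread of its own.

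The place of HOXB7 depends on the length it is divided by. Its annotated model runs far beyond HOXB9, and 7 upstream bins of 4005 bp held only 5, 11 and 8 reads in the control, shRBM15#1 and shRBM15#2 libraries. Over the bins with at least 1% of a gene's reads, a choice made after the values were seen, HOXB7 was at 7.50 RPKM in the control, beside HOXB4 at 7.22 and above HOXB2 at 5.72, and at 3.94 and 5.64 RPKM in the lines. With this choice HOXB3 was at 3.83 RPKM in the control, and the control levels of the other 6 genes moved by less than their counting error.

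In both knockdown lines HOXB9 no longer had the highest level. HOXB4 was at 4.61 RPKM in the shRBM15#1 line and 5.66 in the shRBM15#2 line, and HOXB2 at 4.58 and 5.78, ranges that overlap. HOXB3 was at 1.56 and 1.89, above HOXB9 at 0.808 and 1.13. HOXB7, at 1.03 and 1.44 over its whole model, overlapped HOXB9 in range but lay above it within each line. Over the bins that hold its reads, HOXB7 lay above both HOXB3 and HOXB9. Its range there, 3.94 and 5.64, overlapped those of HOXB2 and HOXB4, although within each line it lay below both. HOXB6, at 0.300 and 0.378, lay above HOXB5, at 0.0765 and 0.244, and HOXB8, at 0.0845 and 0.118, whose ranges overlap.

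**Figure D1:**
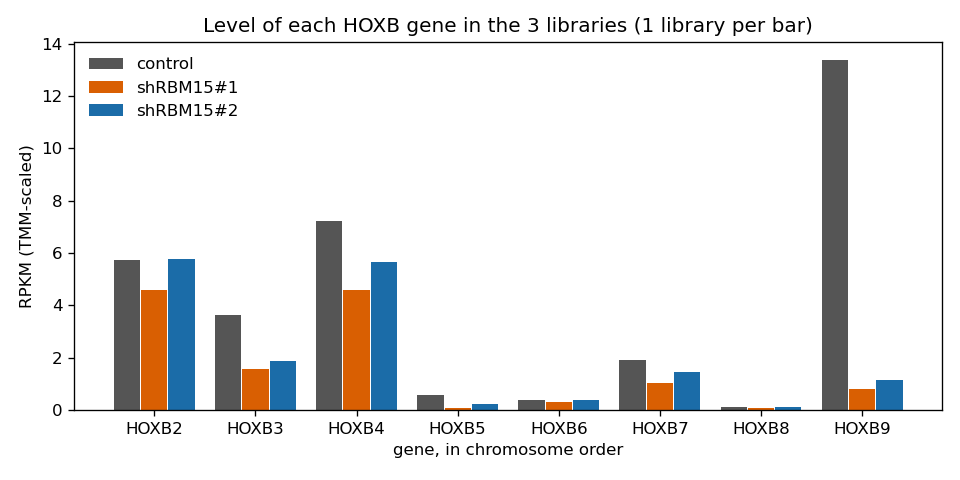
Level of the 8 HOXB genes in RPKM in the control (grey), shRBM15#1 (orange) and shRBM15#2 (blue) libraries, with 1 library per bar and genes in chromosome order. HOXB9 is the highest gene in the control at 13.4 and lies at 0.808 and 1.13 in the knockdown lines, below HOXB2, HOXB3 and HOXB4. The bars of HOXB7 are over its whole model, most of which holds few reads.

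HOXB9 (ENSG00000170689, chr17:46698518-46703839), the 5'-most of the 8 and related to the Abdominal-B gene of the fly, had 1795 reads in the control, 98 in the shRBM15#1 line and 160 in the shRBM15#2 line. The control was at 36.2 CPM and the lines at 2.18 and 3.06 CPM, so that the lines lay far from the control and close to each other. The level was 16.6-fold lower in the shRBM15#1 line and 11.8-fold lower in the shRBM15#2 line. The fitted log2 fold change was −3.78 (SE 0.32), and these are the values by which the 8 genes were chosen.

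At an adjusted p under 0.01, edgeR called 86 of 24887 tested genes (0.346%), of which 69 were lower (0.277%) and 17 higher (0.0683%) after knockdown. All 8 HOXB genes passed the filter of at least 30 reads summed over the libraries, and 1 of the 8, HOXB9, was among the calls. Because the choice rests on the same contrast, nothing is read from this count beside the 0.346% of all genes. The call on HOXB9 was made with the filter at 30 reads, and with a filter of 300 reads edgeR called 0 of 12994 genes (2938 at an unadjusted p under 0.05), compared with 539 of 24887 genes called by DESeq2 at the filter of 30.

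HOXB3 (ENSG00000120093), which is active in the hindbrain and in blood progenitors, had 1237 reads in the control, 479 in the shRBM15#1 line and 677 in the shRBM15#2 line. The control was at 24.9 CPM and both lines lay below it, at 10.7 and 13.0 CPM. The log2 fold change was −1.08 (SE 0.28).

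HOXB4 (ENSG00000182742), known for expanding hematopoietic stem cells when overexpressed, had 1116 reads in the control, 644 in the shRBM15#1 line and 922 in the shRBM15#2 line. These were 22.5, 14.4 and 17.6 CPM, again with both lines below the control but nearer to it than for HOXB3. The log2 fold change was −0.49 (SE 0.28).

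HOXB2 (ENSG00000173917), a regulator of hindbrain segments, had 982, 711 and 1045 reads in the control, shRBM15#1 and shRBM15#2 libraries. At 19.8, 15.9 and 19.99 CPM it was lower in the shRBM15#1 line and at the level of the control in the shRBM15#2 line. Of the 8 genes it was the only one whose lines lay on different sides of the control, with log2 ratios of −0.32 and 0.01 and a fitted value of −0.14 (SE 0.29).

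HOXB7 (ENSG00000260027) had 515 reads in the control, 252 in the shRBM15#1 line and 412 in the shRBM15#2 line, and its log2 fold change was −0.62 (SE 0.35). HOXB5 (ENSG00000120075) had 57, 7 and 26 reads and a log2 fold change of −1.79 (SE 0.74), in which the lines differed from each other by more than a log2 unit, at −2.80 and −1.19. Both genes were below the control in both lines, and the counts of HOXB5 are small.

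HOXB6 (ENSG00000108511) had 72 reads in the control, 49 in the shRBM15#1 line and 72 in the shRBM15#2 line. HOXB8 (ENSG00000120068), which holds myeloid progenitors immature when overexpressed, had 13, 8 and 13 reads. The log2 fold changes of −0.23 (SE 0.49) and −0.29 (SE 0.88) were smaller than their standard errors, as was that of HOXB2.

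The fitted log2 fold change was below 0 for all 8 genes, and it was below 0 in each line for 7 of them, the exception being HOXB2. Over all 24887 tested genes the fitted value was below 0 for 48.9%, and both lines were below 0 for 39.5%. Among the 2945 genes with 1000 to 3000 summed reads, the class of 5 of the 8, these shares were 63.8% and 55.1%. The shRBM15#1 line lay below the shRBM15#2 line for all 8 genes, for 48.3% of all tested genes and for 65.1% of those with 1000 to 3000 reads. The median of the 8 was −0.56 and that of the 7 without HOXB9 was −0.49, beside 0.02 over all tested genes. The summed level of the 8 genes was 116.7 CPM in the control, 50.1 in the shRBM15#1 line and 63.6 in the shRBM15#2 line, and without HOXB9 it was 80.5, 47.9 and 60.6 CPM.

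**Figure D2:**
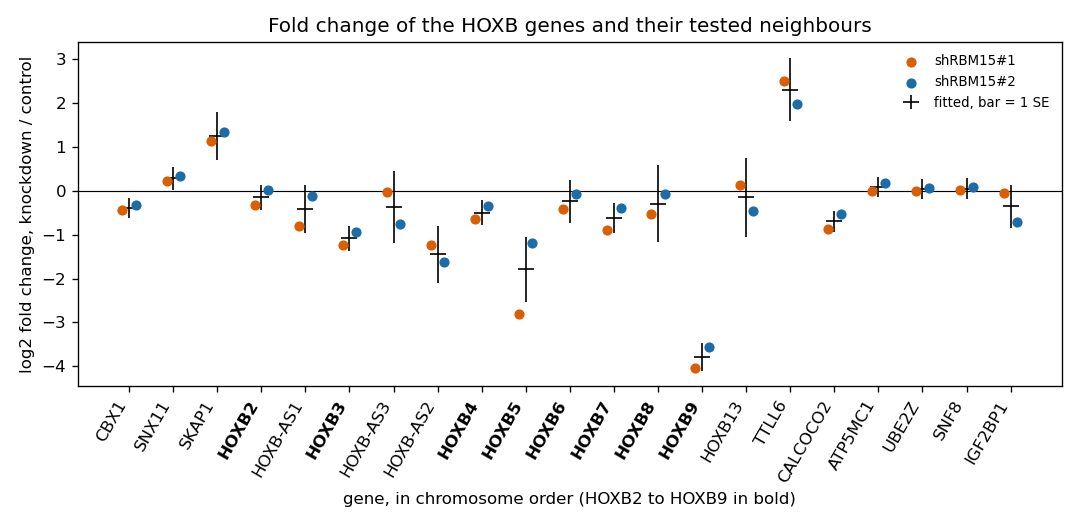
Log2 fold change of the HOXB genes (bold) and their tested neighbours in chromosome order, with the shRBM15#1 line in orange, the shRBM15#2 line in blue, and the fitted value with 1 SE in black. HOXB9 lies at −3.78, while the tested HOXB genes next to it in order, HOXB8 and HOXB13, lie at −0.29 and −0.15.

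Fold changes in these libraries moved with read count, which bears on the HOXB genes with few reads. More bins had reads in the knockdown libraries (473473 and 445666) than in the control (410882), and the median log2 fold change was 0.61 over the 7856 tested genes with fewer than 100 summed reads. Over the 2945 genes with 1000 to 3000 reads, among them HOXB2, HOXB3, HOXB4, HOXB7 and HOXB9, the median was −0.18. The part of this shift in the values of single genes was not tested.

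Placed among genes of like read count, HOXB9 had 2 of 2945 genes with a lower log2 fold change, a place that follows from the choice of the genes by its fall. HOXB3 had 186 genes below it, HOXB7 580, HOXB4 774 and HOXB2 1562 of the same 2945, so that HOXB2 lay near the middle of its class. HOXB5 had 58 of 7856 genes below it and HOXB8 1588 of 7856, while HOXB6 had 1306 of the 4037 genes with 100 to 300 reads.

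**Figure D3:**
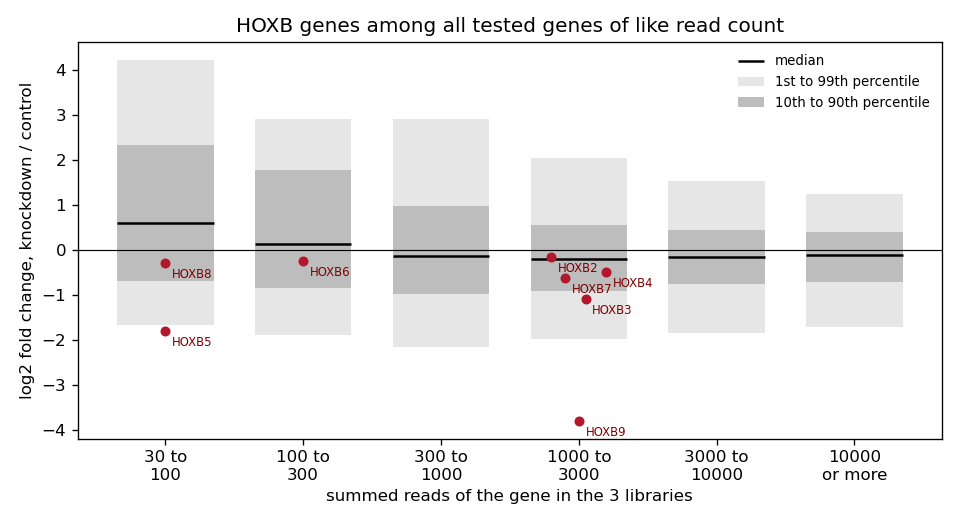
Log2 fold change of all tested genes by summed reads, with the median as a black line, the 10th to 90th percentile in dark grey and the 1st to 99th in light grey, and the HOXB genes as red points. The median falls from 0.61 in the class of fewest reads to −0.18 at 1000 to 3000 reads, and HOXB9 lies at −3.78, below the light bar of its class, as the choice by its fall implies.

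The lower reads of HOXB9 were spread over its whole model. Its 3'-most bin had 826 reads in the control, 48 in the shRBM15#1 line and 62 in the shRBM15#2 line, and the next bin had 598, 31 and 70. The other 3 bins had 168, 178 and 25 reads in the control, 8, 10 and 1 in the shRBM15#1 line and 22, 5 and 1 in the shRBM15#2 line. Every bin of HOXB9 was thus lower in both lines, and over the 4 bins with at least 30 summed reads the log2 ratio was between −4.17 and −3.94 in the shRBM15#1 line and between −5.10 and −2.98 in the shRBM15#2 line.

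In HOXB4 the bins differed from each other. The 2 bins at the 3' end, in the exons of the gene body, held 976 reads in the control, 605 in the shRBM15#1 line and 843 in the shRBM15#2 line, log2 ratios of −0.55 and −0.29. The 2 bins upstream held 140, 39 and 79 reads, log2 ratios of −1.70 and −0.90. The upstream bins were lower relative to the control than the gene body in both lines, and this difference was not tested. An unnamed gene model (ENSG00000257178, chr17:46657474-46659621) just upstream, between HOXB4 and HOXB5, had 190, 43 and 106 reads, log2 ratios of −1.999 and −0.918 that were close to those of the upstream bins. The grouping of these bins was chosen after their values were seen.

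HOXB3 has a long model that encloses HOXB4. Of its 33 bins, 24 had at least 30 summed reads, and all 24 were below the control in both lines, with log2 ratios between −2.12 and −0.11 in the shRBM15#1 line and between −2.12 and −0.44 in the shRBM15#2 line. The 20 bins at the 3' end held 835, 349 and 504 reads, and the 8 bins beside HOXB4 held 388, 127 and 161. The bins beside HOXB4 were at log2 ratios of −1.47 and −1.35, and those at the 3' end at −1.11 and −0.80.

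**Figure D4:**
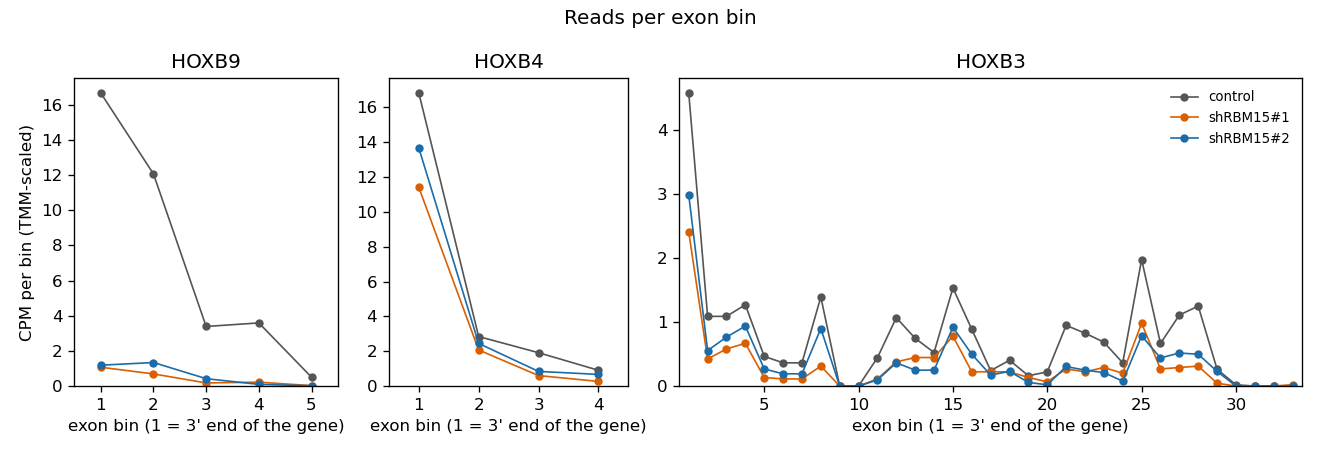
CPM of each exon bin of HOXB9, HOXB4 and HOXB3, counted from the 3' end of the gene, in the control (grey), shRBM15#1 (orange) and shRBM15#2 (blue) libraries. The control lies above both lines in all 5 bins of HOXB9 and all 4 bins of HOXB4.

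The libraries carry no strand information, and 11 of the 24 gene models in the cluster share bases of their exons with another. Of its 162 bins, 19 lie inside a bin of another gene, and all 19 had no reads in any library. Another 17 bins share some of their bases with another gene. The counts of HOXB genes with antisense neighbours therefore leave out reads in shared stretches, and sense and antisense reads cannot be told apart.

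The ends of the cluster and the RNA genes within it were low. HOXB1 had 2, 7 and 2 reads in the control, shRBM15#1 and shRBM15#2 libraries and was not tested, and HOXB13, beyond HOXB9, had 12, 12 and 9. The antisense genes HOXB-AS1, HOXB-AS2 and HOXB-AS3 had 64, 33 and 62 reads, 45, 17 and 15 reads, and 18, 16 and 11 reads. Of these 5 genes, 4 were tested, and edgeR called none, beside 0.346% of all tested genes. None had an unadjusted p under 0.05, beside 18.8% of all tested genes, and DESeq2 called none. LINC02086, between HOXB9 and HOXB13, was in none of the lists, and its widest bin had 0, 11 and 4 reads.

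The cluster also encodes microRNAs. The mature sequences of miR-10a, whose gene lies near HOXB4, and of miR-196a, whose gene lies upstream of HOXB9, are shown as RefSeq gives them (GRCh38.p14), with the seed, bases 2 to 8, in capitals.
hsa-miR-10a-5p: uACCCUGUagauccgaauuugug
hsa-miR-196a-5p: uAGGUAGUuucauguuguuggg
The seeds differ. The gene model of MIR196A1 had 0, 1 and 0 reads in the control, shRBM15#1 and shRBM15#2 libraries, and the levels of the mature microRNAs were not measured in these libraries.

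Genes around the cluster were compared with the same test, since they were not used to choose the HOXB genes. Over all 24887 tested genes, edgeR called 86 (0.346%), DESeq2 called 539, and 4673 (18.8%) had an unadjusted p under 0.05 in edgeR. The counts of each list below stand beside these. Of 12 neighbouring genes from CBX1 to IGF2BP1, 9 were tested, all outside the cluster, and edgeR called none. PRAC1 and PRAC2, which lie within the cluster near HOXB13, and GIP had too few reads. At an unadjusted p under 0.05 there were 3 (1 lower and 2 higher), and DESeq2 called none. The most abundant were CALCOCO2, an autophagy receptor, with 8037, 3966 and 5870 reads and a log2 fold change of −0.69 (SE 0.24), ATP5MC1, a subunit of ATP synthase, with 5102, 4581 and 6123 reads and 0.09 (SE 0.23), and CBX1, a heterochromatin protein, with 4574, 3052 and 3838 reads and −0.38 (SE 0.22). The median of the 9 was 0.05, beside −0.56 for the 8 HOXB genes, a difference that was not tested.

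Of the 29 genes of the HOXA, HOXC and HOXD clusters, 20 were tested. edgeR called none of them, none had an unadjusted p under 0.05, and DESeq2 called none. HOXA9, a leukemia-associated paralog of HOXB9, had 1182 reads in the control, 878 in the shRBM15#1 line and 871 in the shRBM15#2 line, a log2 fold change of −0.40 (SE 0.27, adjusted p = 0.47). HOXD13 was the next most abundant, with 854, 1124 and 1214 reads and a log2 fold change of 0.49 (SE 0.27), and HOXA10 had 299, 193 and 234 reads and −0.46 (SE 0.35). The fold changes were below 0 for 9 and above 0 for 11 of the 20, and their median was 0.22.

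Of the 9 TALE genes, all were tested and edgeR called none, while 5 had an unadjusted p under 0.05, all higher, and DESeq2 called none. The abundant members PBX2 and PKNOX1 had log2 fold changes of −0.02 (SE 0.25) and −0.18 (SE 0.26). MEIS2 had 356 reads in the control, 574 in the shRBM15#1 line and 720 in the shRBM15#2 line, a log2 fold change of 0.89 (SE 0.32). MEIS1, named after its values were seen, had 13, 79 and 93 reads and a log2 fold change of 2.74 (SE 0.59, adjusted p = 0.062), among genes with 100 to 300 summed reads, whose median was 0.13 and 90th percentile 1.78.

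**Figure D5:**
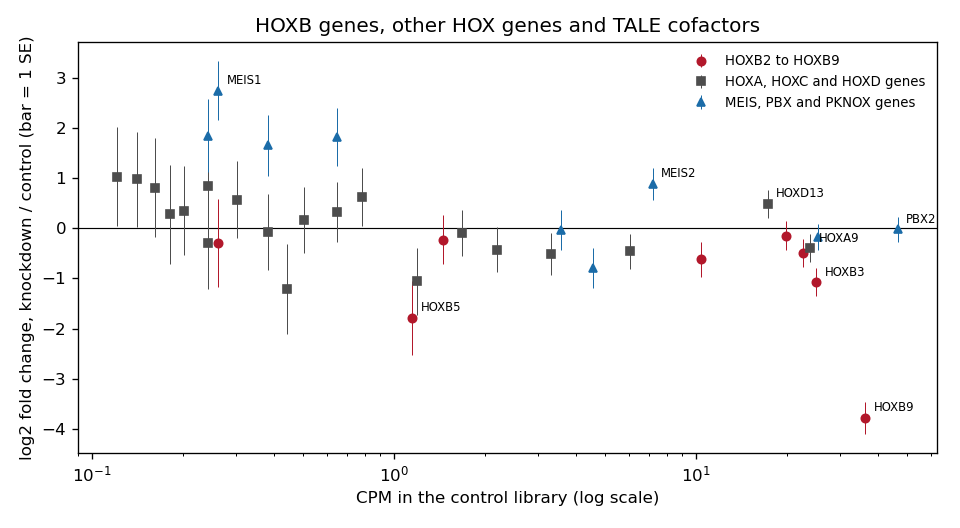
Log2 fold change, with 1 SE, against CPM in the control library (log scale) for HOXB2 to HOXB9 (red), the tested HOXA, HOXC and HOXD genes (grey) and the TALE genes (blue). HOXA9 and HOXD13, at 23.8 and 17.2 CPM in the control, lie at −0.40 and 0.49, and HOXB9, at 36.2 CPM, at −3.78.

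Of 20 MLL and Trithorax regulators, 19 were tested and edgeR called none. KMT2B was not tested, because the identifier it maps to holds a model of 1 bp, and its reads may be counted under another identifier. Of the 19, 5 had an unadjusted p under 0.05 (4 lower and 1 higher), and DESeq2 called 1. The gene called by DESeq2 was KDM6B, a histone H3 lysine 27 demethylase, named after its values were seen, with 975, 334 and 295 reads and a log2 fold change of −1.59 (SE 0.31, adjusted p = 0.045 by edgeR). KMT2A, which encodes MLL itself, had 6096, 4451 and 3798 reads and a log2 fold change of −0.52 (SE 0.25). The most abundant were NSD1 at −0.21 (SE 0.22) and AFF4 at −0.22 (SE 0.22).

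Among the 26 Polycomb regulators, all tested, edgeR called none, 2 had an unadjusted p under 0.05, both lower, and DESeq2 called none. The most abundant, RBBP4, RBBP7 and BAP1, had log2 fold changes of −0.35 (SE 0.22), 0.08 (SE 0.22) and 0.12 (SE 0.22). Of 10 retinoid receptors, retinoic acid hydroxylases and CDX factors, 7 were tested and edgeR called none, with 3 at an unadjusted p under 0.05 (2 lower and 1 higher) and none called by DESeq2. The receptors RXRB, RARA and RXRA were at −0.79 (SE 0.25), −0.53 (SE 0.28) and 0.79 (SE 0.34). CYP26A1, which degrades retinoic acid, was named after its values were seen and had 32, 3 and 2 reads.

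The 5 genes most like HOXB9, outside the 8, were taken by the distance between their log2 ratios in the 2 lines and those of HOXB9, −4.04 and −3.56, among 10621 genes with at least 300 reads in the control. They were ACAP1, SPX, CNTN4, SLC22A15 and INHBE, at distances of 0.20, 0.34, 0.45, 0.52 and 0.57. ACAP1, a GTPase-activating protein of membrane traffic, had 2849 reads in the control, 178 in the shRBM15#1 line and 244 in the shRBM15#2 line, and INHBE, a subunit of activin, had 5125, 242 and 318. All 5 were called by edgeR, with log2 fold changes between −4.17 and −3.41, which follows from how they were taken. ACAP1 is on chromosome 17, outside the HOXB cluster, and the others are on chromosomes 12, 3, 1 and 12.

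The list of RNA sites bound by RBM15 held 1515 sites, 97 of them on chromosome 17. None lay between HOXB1 and HOXB13, and none was annotated to any HOX gene. The nearest, in the 3'UTR of KPNB1 at chr17:45760111-45760376 (GRCh37), was 845.512 kb away. Of the regulators, PSIP1, DOT1L and MLLT1 of the MLL list and PHC3 and RBBP7 of the Polycomb list had a site, and no flanking or TALE gene had one. The list holds only sites that passed the authors' threshold, so the binding of RNAs outside it was not measured here.

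Markers of blood cell types moved in the same libraries. Of 10 erythroid markers 9 were tested and 4 were called by edgeR, all higher, beside 0.346% of all genes called and 0.0683% called higher. At an unadjusted p under 0.05 there were 8, all higher, and DESeq2 called 6. The 4 called by edgeR were the globins HBG1, HBG2 and HBE1 and the heme synthesis enzyme ALAS2. HBE1 had 17934 reads in the control, 148886 in the shRBM15#1 line and 157643 in the shRBM15#2 line, a log2 fold change of 3.13 (SE 0.26, adjusted p = 0.002, higher in 2 of 2 lines). HBG2, the most abundant marker in the control, had 35001, 158505 and 181989 reads and a log2 fold change of 2.31 (SE 0.25), but HBG1 and HBG2 are nearly identical and their reads may be split between them. The summed level of the 10 markers was 1311 CPM in the control and 7667 and 7301 CPM in the lines, with HBZ at 1, 5 and 3 reads. The part of these changes in the levels of the HOXB genes was not tested, and in bulk RNA fewer cells of a type cannot be told apart from less RNA per cell.

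Not every defining megakaryocyte marker was present in these cells. ITGA2B, the platelet integrin subunit, was the most abundant with 45463, 21287 and 31658 reads, and NFE2 and GATA1 were also abundant, but PF4 had 3, 4 and 2 reads and GP9 2, 2 and 5. Of 11 markers 9 were tested and edgeR called none, with 5 at an unadjusted p under 0.05 (1 lower and 4 higher) and 1 called by DESeq2. Their summed level was 1270.1 CPM in the control, 970.8 in the shRBM15#1 line and 1194 in the shRBM15#2 line. Without ITGA2B, a choice made after the values were seen, the sum of the other 10 markers was 353.1, 496.2 and 588 CPM. That sum was higher in both lines than in the control, whereas the sum with ITGA2B was lower in both. ITGB3, the integrin partner of ITGA2B, had 311, 803 and 2702 reads and the platelet chemokine PPBP 118, 274 and 2968, both named after their values were seen. THBS1 and FLI1, named in the same way, had log2 fold changes of 1.54 (SE 0.34) and 0.68 (SE 0.25). Over the 9 tested markers the fold change was below 0 for 3 and above 0 for 6. Their median was 0.68 and the lowest was −0.76.

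Among 11 myeloid markers 8 were tested and edgeR called 1, the granule protease CTSG. Over all tested genes 0.346% were called and 0.277% were called lower. CTSG had 4741, 167 and 446 reads and a log2 fold change of −3.96 (SE 0.41, adjusted p = 0.004 by edgeR, lower in 2 of 2 lines). At an unadjusted p under 0.05 there were 3, 1 lower and 2 higher, and the fold change was above 0 for 5 of the 8, with a median of 0.33. Their summed level was 371.6 CPM in the control and 135.7 and 251.8 CPM in the lines, CD33 was the most abundant in the control, and ELANE was at 1, 4 and 3 reads. Of the 8 stem and progenitor markers, all tested, edgeR called none, with 2 at an unadjusted p under 0.05 (1 lower and 1 higher) and 1 called by DESeq2. Their summed level was 160.2, 148.6 and 136.3 CPM, and ERG was the most abundant in the control. The sum holds differences in both directions. The fold change was above 0 for 5 of the 8 and below 0 for 3, with a median of 0.39. CD34, a surface marker of progenitors that was named after its values were seen, had 1110, 253 and 473 reads and a log2 fold change of −1.61 (SE 0.34, adjusted p = 0.059 by edgeR), and it was the gene called by DESeq2. KIT, the receptor of stem cell factor, also named after its values were seen, had 402, 1355 and 449 reads. Its log2 fold change was 1.26 (adjusted p = 0.32 by edgeR).

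Lymphoid and stromal markers had low summed levels. The 8 lymphoid markers summed to 17.6, 23.1 and 18.3 CPM, with NCAM1 the most abundant in the control, and edgeR called none, with 2 at an unadjusted p under 0.05, both higher, and 1 called by DESeq2. IL7R, an interleukin receptor subunit named after its values were seen, had 45, 290 and 370 reads and a log2 fold change of 2.90 (SE 0.43, adjusted p = 0.016 by edgeR). The 5 stromal markers summed to 1.88, 9.19 and 4.61 CPM, with COL3A1 the most abundant in the control at 0.524 CPM. edgeR called none, 4 had an unadjusted p under 0.05, all higher, and DESeq2 called none. Over tested genes with 30 to 100 summed reads the median log2 fold change was 0.61 and the 90th percentile 2.33. The part of that shift in the stromal markers was not tested. The part of the markers in the levels of the HOXB genes was not tested.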

How the data were processed

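The RNA-seq files hold raw counts that the authors made per exon bin of flattened Ensembl gene models, after aligning unstranded paired-end reads with STAR (GRCh37). The submitters' processing notes name HTSeq 0.6.0. A table of the authors holds the same counts in all 625148 bins, from which bin positions were read, and their exon usage fold changes and p-values, which were not used. Another 809 wrapped lines of this table were left out. The authors' RIP-seq table gives read counts for 1515 sites with their own test results, and only positions and gene names were read.

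Bin counts were summed per gene, so a read that spans bins is counted in each. Symbols came from GENCODE by identifier for 54481 of 62238 genes, and for 1 listed gene by at least 90% reciprocal overlap. Reads on no bin, or on several genes, 23.2%, 32.0% and 23.5% of the control, shRBM15#1 and shRBM15#2 libraries, were left out of library sizes and tests. The 1 control and 2 knockdown libraries were compared with edgeR 4.0.16 in R 4.3.3 (TMM factors 0.931, 1.08 and 0.996, quasi-likelihood test, at least 30 summed counts, Benjamini-Hochberg adjusted p under 0.01), tested on simulated data first. SE is the log2 fold change divided by the square root of F. CPM uses TMM-scaled library sizes, log2 ratios per line a prior count of 0.5 for genes, 0.5 reads for single bins and none for groups of bins and the unnamed model, and RPKM the summed bin widths. The spread behind the p-values and SE comes only from the 2 knockdown libraries. It is estimated partly from all genes together, so it is not each gene's own spread between the lines.

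DESeq2 1.42.0, its size factors, other filters, leaving out each line, and other sets of bins were the alternatives. The members and gene lists were chosen with earlier results of these data known. Named genes are the 8 HOXB genes, RBM15, the called genes and the 3 most abundant in the control of each list reported (markers in part), and the 5 genes with at least 300 control reads nearest to HOXB9. Tables were handled with Python 3.11.15 and pandas 2.3.3. Hairpin sequences are those of the study's oligonucleotides, and microRNA sequences those of RefSeq.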

Additional observations from a re-analysis of the deposited data

How the results depend on the processing

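The count of called genes moved with the settings, from 86 to 191 with DESeq2 size factors (53 higher and the rest lower), to 801 of 53542 with no filter, to 539 with the DESeq2 Wald test, and to 0 of 12994 with a filter of 300 summed counts, where 2938 genes had an unadjusted p under 0.05 in edgeR. With the largest exon bin of each gene only, an alternative chosen after seeing the data, it was 0 of 19286, with 3497 genes at an unadjusted p under 0.05. Without bins that overlap another gene it was 112. All 86 genes were among the calls with DESeq2 size factors, with no filter and with the DESeq2 Wald test. Fewer or more genes were tested under the filters. The cause of the other differences was not tested. With no filter the median over all genes moved to a log2 fold change of 0.44, compared with 0.02.

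The median log2 fold change of the 8 HOXB genes was −0.56 and lay between −0.77 and −0.37 over the alternatives, including those without shRBM15#1 (−0.37) or shRBM15#2 (−0.77). HOXB5, HOXB6 and HOXB8 drop out at the filter of 300 counts, HOXB5 without overlapping bins and HOXB8 with the largest bin only, so those medians are over 5, 7 and 7 genes. Of 59 values of single HOXB genes under the alternatives, 1 was above 0 (HOXB2 without shRBM15#1, 0.01), and HOXB9 lay between −4.04 and −3.56. With the largest bin only, HOXB3 at −0.64, HOXB4 at −0.30 and HOXB6 at −0.69 lay outside the values of their 2 lines. Of the flanking, other HOX, cofactor and regulator genes, 0 were called, 2 with no filter (KDM6B and CYP26A1) and 1 with the DESeq2 Wald test (KDM6B). Only the genes of these lists named with their values above were followed over all settings. Others also changed sign when a line was left out, such as WDR5, at 0.03 in the fit and −0.16 without shRBM15#2. Of the genes followed, ATP5MC1 (−0.038), RBBP7 (−0.051) and BAP1 (−0.0080) changed sign with no filter, and ATP5MC1 also without shRBM15#2 (−0.011). PBX2 changed sign with a filter of 300 counts (0.12), with the largest bin (0.31) and without shRBM15#1 (0.10). None of these was called, and the cause was not tested. HOXB7 was at 7.50 RPKM in the control over the bins with at least 1% of its reads, chosen after seeing the data, and at 1.90 over its whole model, which the near-empty upstream bins lengthen. Without either line 1 library remains on each side, so only fold changes were computed. No paired analysis was possible because the control is a single library. The depth limits HOXB5, HOXB6 and HOXB8, with at most 72 reads in a library.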
